A study of Mus musculus with 6 samples.

Results

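The 9 genes of the mouse mitochondrial genome that lie on its light strand were examined in hippocampal microglia: mt-Nd6, which encodes a subunit of respiratory complex I, and the tRNA genes mt-Tq, mt-Ta, mt-Tn, mt-Tc, mt-Ty, mt-Ts1, mt-Te and mt-Tp. They were taken by strand, with earlier results of these data known, and all 9 have a row among the 54590 gene IDs of the count table. The other 28 of the 37 mitochondrial genes are 12 heavy-strand mRNAs, 14 heavy-strand tRNAs and 2 ribosomal RNAs. Microglia are the resident macrophages of the brain. The cells came from mice 3 weeks after birth that carried the Tmem119-tdTomato+/- genotype, a red reporter tied to a microglial gene, in both groups. One group is labelled Ctrl and the other FGR, which the series title links to growth restriction in the womb, and the comparison asks how that restriction bears on the microglial transcriptome. Each group has 3 libraries, each from 3000 microglia. How growth was restricted, and whether a library stands for 1 animal or several, is not given in the sources used here.

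The libraries held 1553588 to 11364316 counts. Libraries 1 and 2 of a group were near copies: over genes whose counts in both libraries together came to 1000 to 9999, their chi-square was 2.63 per gene in Ctrl and 2.77 in FGR, against 20.4 to 51.7 for the 13 other pairs. Each such pair was summed to 1 sample, so a group has 2 samples (libraries 1 and 2, and library 3). A p-value here therefore weighs only how far these samples lie apart, which may be technical. Counts were mostly even (62.7% to 69.0% of counts from 2 to 20 in a library), as were 30 of the 40 light-strand counts above 0, so a count is not 1 independent molecule. Labels of nuclear genes could not be taken at their word. The 10 microglial markers ranged from 3 counts in all libraries for C1qa to 157940 for Tgfbr1, with 29 for Tmem119, while the astrocyte label Aqp4 had 5621. Levels are given as CPM, counts scaled to the library's total count. The summed level of the microglial labels was 5580.1 CPM in Ctrl libraries 1 and 2, 5534.2 in Ctrl library 3, 5547.8 in FGR libraries 1 and 2 and 4888.1 in FGR library 3, nearly all of it Tgfbr1. Over all libraries no marker was at 0. The 4 neuron labels summed to 61.7 to 98.1 CPM, lowest in library 3 of each group. The 4 astrocyte labels summed to 215.7 and 247.4 CPM in libraries 1 and 2 of Ctrl and FGR and to 367.4 and 339.4 in library 3, carried by Aqp4 and Gfap, while Slc1a2 was lower in library 3. The 4 oligodendrocyte labels summed to 64.3 and 64.6 CPM in libraries 1 and 2 and to 118.4 and 129.6 in library 3, carried by Mbp. The part of other cell types in the mitochondrial counts was not tested.

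Both strands of mitochondrial DNA are transcribed as long precursors that start in the control region and run through many genes. The precursor of the heavy strand carries both ribosomal RNAs, most tRNAs and all mRNAs but 1, while that of the light strand carries a single mRNA, mt-Nd6, among widely spaced tRNAs. The tRNAs are cut out by RNase P at one end and ELAC2 at the other, and most other light-strand RNA, which is antisense to heavy-strand genes, is degraded by the SUV3-PNPase complex. Light-strand RNA that escapes decay can pair with heavy-strand RNA into double-stranded RNA, which is known to trigger innate sensors.

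The sequences of the 4 light-strand tRNAs with enough counts to be tested are shown, since the results on tRNAs turn on them. Each is the tRNA gene read on its own strand as DNA, 5′ to 3′, with the anticodon in capitals, from the GENCODE M21 transcripts on GRCm38 (mm10).
mt-Tp (proline, chrM:15356-15422, minus strand): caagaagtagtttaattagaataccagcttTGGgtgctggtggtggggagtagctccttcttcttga
mt-Te (glutamate, chrM:14071-14139, minus strand): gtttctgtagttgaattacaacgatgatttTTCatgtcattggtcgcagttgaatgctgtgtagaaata
mt-Tn (asparagine, chrM:5089-5159, minus strand): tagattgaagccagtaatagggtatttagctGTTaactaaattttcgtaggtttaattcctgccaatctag
mt-Ts1 (serine, chrM:6870-6938, minus strand): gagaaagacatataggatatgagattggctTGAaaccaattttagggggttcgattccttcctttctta
In each, a script found the anticodon in a loop of 7 bases closed by a stem, at bases 31 to 33 of mt-Tp, mt-Te and mt-Ts1 and at bases 32 to 34 of mt-Tn, counted from the 5′ end.

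The start of mt-Nd6 is set beside that of its neighbour mt-Nd5 to show how the mRNAs of both strands differ in bases. Each run is the first 90 bases of the coding sequence with the first codon in capitals.
mt-Nd6 (chrM:13981-14070, minus strand): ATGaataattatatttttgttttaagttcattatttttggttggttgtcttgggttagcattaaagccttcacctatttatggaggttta
mt-Nd5 (chrM:11742-11831, plus strand): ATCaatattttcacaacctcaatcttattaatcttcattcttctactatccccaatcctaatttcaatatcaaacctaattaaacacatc
These 90 bases hold 17 G and 8 C in mt-Nd6, and 0 G and 25 C in mt-Nd5. Over the whole gene, mt-Nd6 was 28.1% G and 5.97% C, a ratio of 4.71, and 43.7% T. Among the 12 heavy-strand mRNAs the ratio of G to C ran from 0.226 to 0.678, so mt-Nd6 lay outside their range. The light-strand tRNAs shared the excess of G: the ratio was above 1 in all 8, from 1.09 to 2.25 with a median of 1.64, against 0.615 to 1.5 with a median of 0.850 in the 14 heavy-strand tRNAs. Overall GC content did not set mt-Nd6 apart, at 34.1% against 31.9% to 41.1% in the heavy-strand mRNAs.

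**Figure D1:**
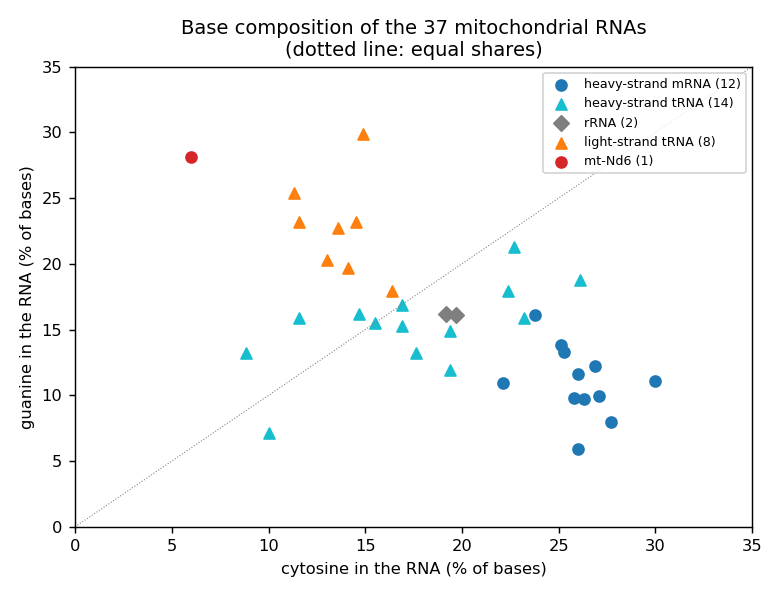
Cytosine (horizontal axis) and guanine (vertical axis) as percent of the bases of each of the 37 mitochondrial RNAs, 1 point per gene, with a dotted line at equal shares. All 9 light-strand genes lie above the line and all 12 heavy-strand mRNAs below it, with mt-Nd6 farthest to the left at 5.97% cytosine.

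mt-Nd6 (ENSMUSG00000064368, chromosome M of GRCm38, 13552 to 14070, minus strand, protein coding) made up 73.3% of the 40680 light-strand counts, which were 0.130% of all counts. It had 2714, 1652 and 9115 counts in Ctrl libraries 1, 2 and 3, and 3491, 1873 and 10962 in FGR libraries 1, 2 and 3. As CPM of library totals these were 913.0, 1063.3 and 893.5 in Ctrl and 1039.6, 1050.2 and 964.6 in FGR. The groups overlapped, and no library stood far from the rest. The near copies Ctrl 1 and Ctrl 2 differed in mt-Nd6 by more than in a typical gene (chi-square 23.9), while FGR 1 and FGR 2 did not (0.126).

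Per length, mt-Nd6 stood among the heavy-strand mRNAs rather than below them. Its level was 1790 ± 96.8 CPM per kb in Ctrl and 1934 ± 107 in FGR (SD, n = 2). In each of the 4 samples it was higher than 7 or 8 of the 12 heavy-strand mRNAs. The heavy-strand mRNAs with the highest and the lowest counts per kb summed over all libraries were mt-Co1, a cytochrome oxidase subunit, at 3401 ± 571 CPM per kb in Ctrl and 3764 ± 582 in FGR, and mt-Nd3, a complex I subunit, at 177.3 ± 24.0 and 172.2 ± 34.0. The nearest mRNAs on either side of mt-Nd6 were both higher: mt-Nd5, another complex I subunit, stood at 2203 ± 173 in Ctrl and 2384 ± 135 in FGR, and mt-Cytb, a complex III subunit, at 3447 ± 902 and 3535 ± 399.

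**Figure D2:**
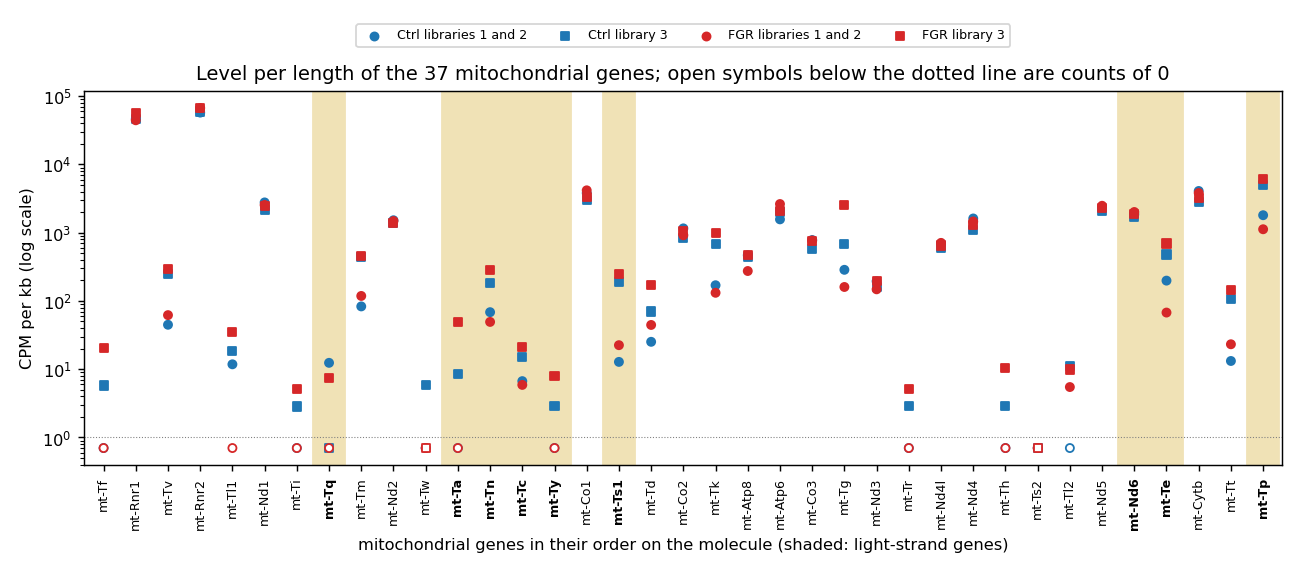
CPM per kb (log scale) of the 37 mitochondrial genes in their order on the molecule, with light-strand genes shaded. Blue is Ctrl and red is FGR, circles are libraries 1 and 2 summed, squares are library 3, and open symbols below the dotted line are counts of 0; mt-Nd6 sits within the range of the heavy-strand mRNAs, below mt-Nd5 and mt-Cytb in every sample, and the squares lie above the circles for most tRNAs.

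mt-Nd6 and mt-Nd5 kept nearly the same proportion in every library. There were 21.7, 24.6 and 23.5 counts of mt-Nd6 per 100 of mt-Nd5 in Ctrl libraries 1, 2 and 3, and 22.8, 23.5 and 23.1 in the FGR libraries. Per kb, mt-Nd6 was at 76.4%, 86.6% and 82.7% of mt-Nd5 in Ctrl and at 80.3%, 82.6% and 81.2% in FGR. Of 16 mitochondrial genes with at least 50 counts in each of the 4 samples, mt-Nd5 was the closest to mt-Nd6 in its pattern, with a root mean square difference of 0.018 in centred log2 CPM over the 4 samples. mt-Nd4l (0.039) and mt-Nd2 (0.063) came next, all 3 being complex I subunits of the heavy strand. The farthest were mt-Tp (1.08) and the glycine tRNA mt-Tg (1.54).

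The library kit keeps strand, but the strand setting of the counting is not given in the sources used here, so reads of mt-Nd6 and of heavy-strand RNA across it cannot be told apart. mt-Nd5 and mt-Nd6 share their last 14 bases on opposite strands (chrM:13552-13565), shown with each stop codon in capitals because it is where both genes end.
mt-Nd6 strand: ttactcgagatTAA
mt-Nd5 strand: ttaatctcgagTAA
No annotated heavy-strand gene covers the other bases of mt-Nd6, up to mt-Cytb. The annotation marks genes and not where RNAs end, so heavy-strand RNA, including RNA that continues from mt-Nd5, may still run across them. The same limit holds for each light-strand tRNA below.

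Against the heavy-strand mRNAs, mt-Nd6 did not differ between FGR and Ctrl beyond the spread of the samples. Its level per kb was 115.1%, 129.9% and 138.8% of the median of the 12 heavy-strand mRNAs in Ctrl libraries 1, 2 and 3, and 140.2%, 130.4% and 139.2% in FGR libraries 1, 2 and 3. Over samples this was 129.5% ± 13.1 in Ctrl and 137.9% ± 1.84 in FGR (SD, n = 2). Ctrl library 1 was the lowest, and the groups overlapped. On the log2 scale the difference of FGR minus Ctrl was 0.09, and p was 0.667 (exact permutation test over the 4 samples, two-sided), where 0.333 is the smallest it can give. Within libraries 1 and 2 the difference was 0.18, and within library 3 it was 0.00. With mt-Nd5 alone as the reference it was -0.003.

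**Figure D3:**
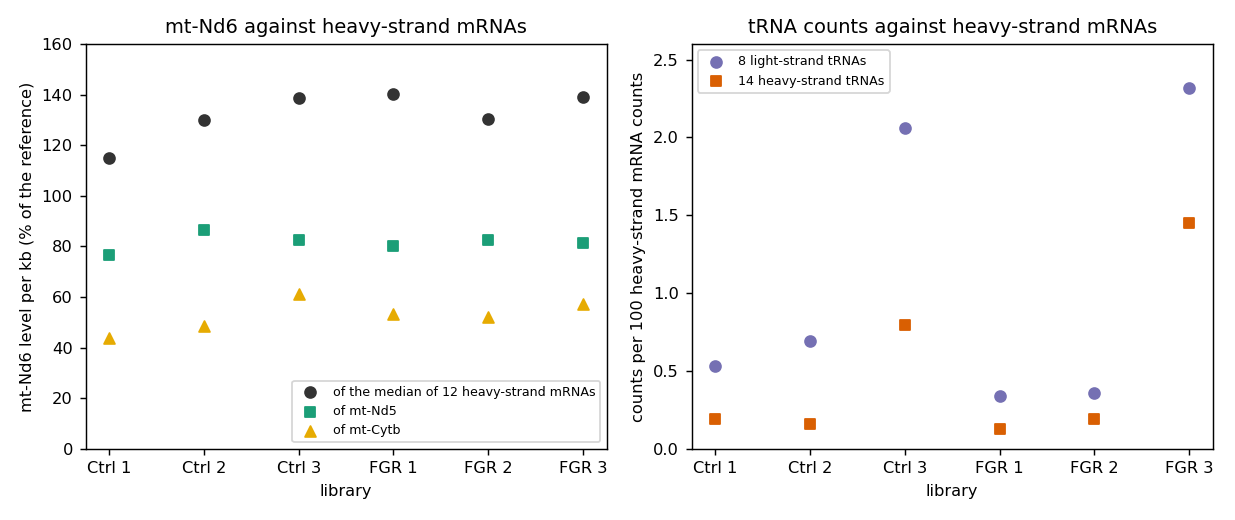
Left, mt-Nd6 level per kb as percent of the median of the 12 heavy-strand mRNAs, of mt-Nd5 and of mt-Cytb in each of the 6 libraries; right, summed counts of the 8 light-strand and of the 14 heavy-strand tRNAs per 100 heavy-strand mRNA counts. The share of mt-Nd5 stays between 76.4% and 86.6%, while the light-strand tRNAs range from 0.338 to 2.32 with library 3 of each group highest.

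Between FGR and Ctrl, mt-Nd6 itself had a log2 fold change of 0.21 (SE 0.28) over the 4 samples, a fold of 1.15, with an adjusted p of 0.9999 in edgeR's quasi-likelihood test with Benjamini-Hochberg adjustment over all genes. Of 24149 genes tested, 0 (0%) passed an adjusted p of 0.05, and 281 (1.16%) had an unadjusted p under 0.05, as did 0 of the 5 light-strand genes that passed the filter on low counts. DESeq2 also called 0, with 301 genes at an unadjusted p under 0.05. The CPM ratio of FGR to Ctrl for mt-Nd6 was 1.08 in libraries 1 and 2 and 1.08 in library 3. Its fold change moved with the scaling, to 0.10 with library totals and 0.01 when samples were scaled to their heavy-strand mRNA counts. All genes moved with it: the median log2 fold change was -0.03 with the scaling used, -0.13 with library totals and -0.22 with heavy-strand mRNA counts. Relative to that median, mt-Nd6 stood at 0.24, 0.23 and 0.23. The 12 heavy-strand mRNAs had 11 fold changes above 1 and a median log2 fold change of 0.14. In a bulk library, fewer cells of a type and less RNA per cell cannot be told apart.

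The tRNA genes were uneven. mt-Tp held 83.4% of the 10873 counts of the 8 light-strand tRNAs, and mt-Tp, mt-Te, mt-Tn and mt-Ts1 passed the filter on low counts. The other 4 had 8 to 45 counts each in all 6 libraries. In order of counts per kb over all libraries, mt-Tp was followed by mt-Nd6, mt-Te, mt-Tn, mt-Ts1, mt-Ta, mt-Tc, mt-Tq and mt-Ty. Of neighbours in that order, only mt-Nd6 and mt-Te had sample ranges that did not overlap within either group. mt-Te and mt-Tn, and mt-Ts1 and mt-Ta, overlapped in FGR but not in Ctrl, and the other neighbours overlapped in both groups. A level per kb of a gene this short rests on how reads reaching past its ends were counted, which is not given in the sources used here.

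mt-Tp (ENSMUSG00000064372) carries proline and is the first gene on the light-strand precursor, next to the control region. It had 323, 224 and 3447 counts in Ctrl libraries 1, 2 and 3 and 241, 146 and 4687 in FGR libraries 1, 2 and 3. As CPM these were 108.7, 144.2 and 337.9 in Ctrl and 71.8, 81.9 and 412.4 in FGR. Library 3 was the highest in both groups, and FGR held both the lowest and the highest values. The near copies Ctrl 1 and Ctrl 2 also differed in mt-Tp by more than in a typical gene (chi-square 10.7), while FGR 1 and FGR 2 did not (1.58). Per kb, mt-Tp ranked 3 of the 37 mitochondrial genes in library 3 of both groups, after the 2 ribosomal RNAs, but 8 in Ctrl libraries 1 and 2 and 11 in FGR libraries 1 and 2. Its level per kb was 0.971 times that of mt-Nd6 in Ctrl libraries 1 and 2 and 0.559 times in FGR libraries 1 and 2, against 2.93 and 3.31 times in the third libraries. No other light-strand gene lies within 1216 bases on one side, and none is annotated between mt-Tp and the end of the record on the other.

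mt-Te (ENSMUSG00000064369) carries glutamate and abuts mt-Nd6 with no base between them. It had 38, 24 and 337 counts in Ctrl libraries 1, 2 and 3 and 16, 8 and 544 in FGR libraries 1, 2 and 3, or 12.8, 15.4 and 33.0 CPM and 4.76, 4.49 and 47.9 CPM. mt-Tn (ENSMUSG00000064348) carries asparagine and had 12, 10 and 133 counts in Ctrl and 10, 8 and 230 in FGR. As CPM that was 4.04, 6.44 and 13.0 in Ctrl and 2.98, 4.49 and 20.2 in FGR. For both genes FGR library 3 was the highest of all 6 and the groups overlapped.

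mt-Ts1 (ENSMUSG00000064352) carries serine and stands alone on the light strand, with the nearest light-strand genes 1543 and 6613 bases away. It had 2, 2 and 134 counts in Ctrl and 8, 0 and 196 in FGR, with at most 8 counts in any of libraries 1 and 2. mt-Tq, the glutamine tRNA, is as isolated (1175 bases to the next light-strand gene) but had only 2, 2 and 0 counts in Ctrl and 0, 0 and 6 in FGR.

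The remaining tRNAs lie in 1 cluster with mt-Tn, between mt-Nd2 and mt-Co1. mt-Ta, which carries alanine (chromosome M, 5018 to 5086), had 0, 0 and 6 counts in Ctrl and 0, 0 and 39 in FGR. mt-Tc, for cysteine (5192 to 5257), had 0, 2 and 10 in Ctrl and 2, 0 and 16 in FGR. mt-Ty, for tyrosine (5260 to 5326), had 0, 0 and 2 in Ctrl and 0, 0 and 6 in FGR. mt-Tn, at 403 counts in all, thus stood above its cluster neighbours, from which it is separated by 2 bases on one side and 32 on the other. Of the 36 values of light-strand genes in libraries 1 and 2, 13 were 0, against 1 in the third libraries. If counts were independent, a count of 0 would allow up to 3 counts. That is 0.893 to 1.93 CPM in libraries 1 and 2 and 0.264 to 0.294 CPM in library 3. Since most counts are even, the true bound is likely higher.

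**Figure D4:**
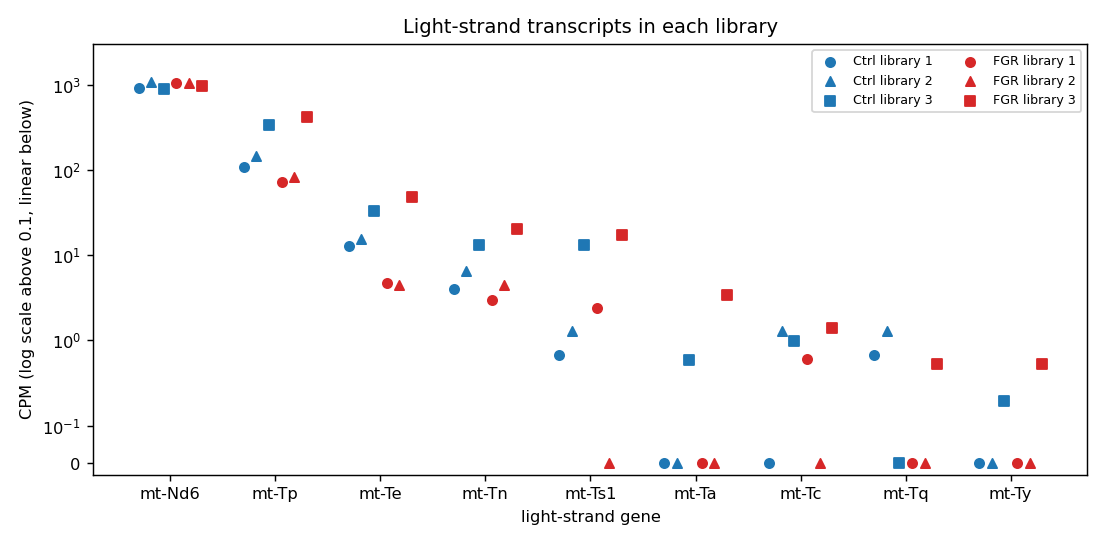
CPM of library totals (log scale above 0.1, linear below) of the 9 light-strand genes in each library. Blue is Ctrl and red is FGR, with circles, triangles and squares for libraries 1, 2 and 3; mt-Nd6 lies between 893.5 and 1063.3 CPM in all 6 libraries, while the squares of mt-Tp, mt-Te, mt-Tn and mt-Ts1 lie above the other symbols in both groups.

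Library 3 of both groups held more counts on tRNA genes relative to mRNA counts than libraries 1 and 2, on both strands. Such counts do not tell tRNAs that were cut out from precursors that still hold them. The CPM of mt-Tp was 2.80 times as high in library 3 as in libraries 1 and 2 of Ctrl and 5.48 times in FGR. For mt-Te these ratios were 2.41 and 10.3, for mt-Tn 2.68 and 5.78, and for mt-Ts1 14.9 and 11.1. In each group 7 of the 14 heavy-strand tRNAs had such a ratio, of 1.55 to 7.99 in Ctrl and 1.81 to 15.8 in FGR, 6 of them the same genes. mt-Nd6 was at 0.926 and 0.925, and the median of the 12 heavy-strand mRNAs was 0.806 and 0.930. No label names a batch. Library 3 was also the deepest in each group, with higher summed astrocyte and oligodendrocyte labels and lower neuron labels. The part of depth or of other cell types in this difference was not tested.

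Between FGR and Ctrl, no light-strand tRNA passed the test, and the 2 sets of libraries went opposite ways for mt-Tp and mt-Te. With each set taken alone, the CPM ratio of FGR to Ctrl for mt-Tp was 0.623 in libraries 1 and 2 (95% exact interval 0.515 to 0.751) and 1.22 in library 3 (1.15 to 1.30). For mt-Te it was 0.341 (0.159 to 0.682) and 1.45 (1.19 to 1.77). These intervals use halved counts, since most counts are even, and cover counting error only. For mt-Tn the ratio was 0.720 (0.264 to 1.91) and 1.55 (1.14 to 2.13), and for mt-Ts1 it was 1.76 (0.252 to 19.5) and 1.31 (0.953 to 1.82), so that mt-Tn differed beyond counting error in library 3 alone and mt-Ts1 in neither set. mt-Ta, at 6 counts in Ctrl library 3 and 39 in FGR library 3, had a ratio of 5.83 (1.72 to 30.7) there and no count in libraries 1 and 2. The turn from below 1 to above 1 was not particular to the light strand. By CPM of library totals, 15 of 26 mitochondrial genes with counts in all 4 samples made it and 0 made the opposite one. These were 4 of 6 light-strand genes, 8 of 12 heavy-strand mRNAs, 2 of 6 heavy-strand tRNAs and 1 of 2 ribosomal RNAs. In 9 of the 15 both intervals lay clear of 1, among them mt-Tp, mt-Te, mt-Tg (0.560 and 3.67), mt-Nd3 (0.762 and 1.22) and mt-Cytb (0.935 and 1.16). These numbers of genes rest on library totals. The scaling factors of the fit were 1.122 for Ctrl and 0.982 for FGR in libraries 1 and 2, and 0.958 and 0.948 in library 3. They raise the ratios in libraries 1 and 2, so those a little below 1, such as that of mt-Cytb, would not stay below. The genes were not counted again with that scaling. Whether the ratio differs between the sets was not tested, since each set holds 1 sample per group.

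**Figure D5:**
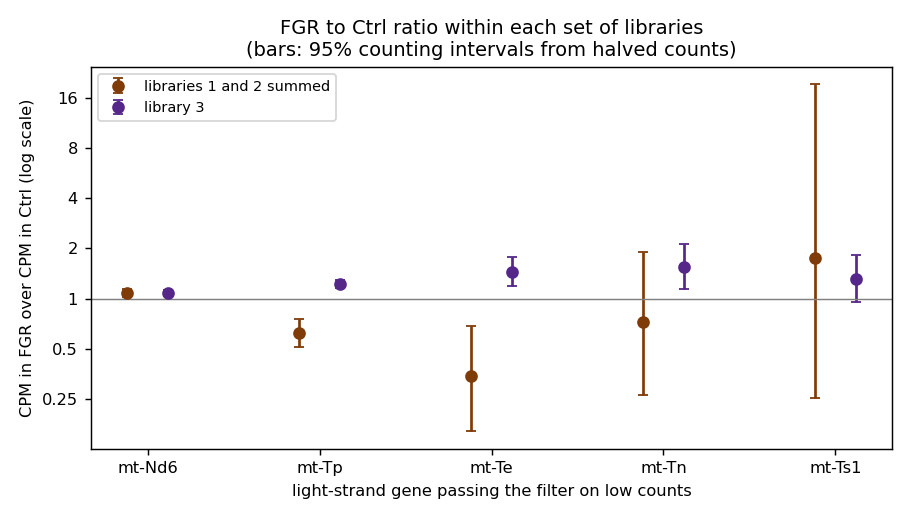
CPM in FGR over CPM in Ctrl (log scale) within libraries 1 and 2 summed and within library 3, for the 5 light-strand genes that passed the filter on low counts, with 95% counting intervals from halved counts. mt-Nd6 is at 1.08 in both sets, while mt-Tp and mt-Te lie below 1 in libraries 1 and 2 and above 1 in library 3.

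Over the 4 samples the log2 fold changes of FGR against Ctrl were 0.15 (SE 0.85) for mt-Tp, 0.25 (SE 0.97) for mt-Te, 0.47 (SE 0.70) for mt-Tn and 0.43 (SE 1.27) for mt-Ts1. The edgeR adjusted p was 0.9999 for all 4. Without FGR library 3 the values were -1.60, -2.31, -1.36 and -2.24, and without Ctrl library 3 they were 1.30, 1.26, 1.61 and 3.72. Each of these fits kept library 3 in 1 group only. Its tRNA counts were higher relative to mRNA, so these values mix the difference between sets with that between groups. With the set as a block, the fold changes of mt-Tp and mt-Te turned to -0.09 (SE 0.26) and -0.16 (SE 0.32). Those of mt-Tn and mt-Ts1 were 0.31 (SE 0.37) and 0.53 (SE 0.435), and none of the 4 was called. The SEs without the block also hold the difference between the sets. The median log2 fold change of the 5 light-strand genes tested was 0.25, against -0.03 over all genes tested and 0.42 over the 7 heavy-strand tRNAs tested.

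As a sum, light-strand tRNA counts per 100 heavy-strand mRNA counts were 0.530, 0.695 and 2.06 in Ctrl libraries 1, 2 and 3 and 0.338, 0.360 and 2.32 in FGR. FGR held the 2 libraries with the least and the one with the most. On the log2 scale the means were -6.51 ± 1.28 in Ctrl and -6.80 ± 1.94 in FGR (SD, n = 2), a difference of -0.30 that was far smaller than the spread between samples. It was -0.76 within libraries 1 and 2 and 0.17 within library 3. Heavy-strand tRNA counts per 100 heavy-strand mRNA counts were 0.189, 0.158 and 0.798 in Ctrl and 0.128, 0.189 and 1.45 in FGR, and thus followed the same order of sets.

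Among all tRNA counts the light-strand share was 73.8% (68.1 to 78.8), 81.5% (74.8 to 86.7) and 72.1% (70.4 to 73.7) in Ctrl libraries 1, 2 and 3. In FGR libraries 1, 2 and 3 it was 72.5% (65.8 to 78.4), 65.6% (56.9 to 73.4) and 61.5% (60.1 to 62.9). The brackets hold 95% Wilson intervals from halved counts, which cover counting error only. With libraries 1 and 2 as 1 sample, FGR minus Ctrl on the log2 scale was -0.14 within libraries 1 and 2 and -0.23 within library 3. The log2 shares were -0.381 in libraries 1 and 2 and -0.473 in library 3 of Ctrl, and -0.519 and -0.702 in FGR. Both FGR samples thus lay below both Ctrl samples, which was not tested with 2 samples per group. Taken by library, the interval of FGR library 1 overlapped those of Ctrl libraries 1 and 3. The share also falls when counts of a heavy-strand tRNA rise. The heavy-strand tRNA with the most counts, mt-Tg, had 479 counts in Ctrl library 3 and 1958 in FGR library 3, and 88 and 56 in libraries 1 and 2 summed. mt-Tk, for lysine, came next with 456 and 723 counts in the third libraries and 50 and 44 in libraries 1 and 2 summed.

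Nuclear genes that act on these RNAs were read only as labels, given the marker counts above, and none was called. Of 17 labels for mitochondrial transcription and its termination, 11 were tested, with 5 fold changes above 1 and 6 below, and the smallest p, by which the label named for each list was taken, belonged to Mterf1a at a log2 fold change of -0.89 (SE 0.47). Of 20 labels for RNA processing and decay, 12 were tested (4 above, 8 below), with Supv3l1, whose gene encodes SUV3, at 0.47 (SE 0.30). The enzymes that charge the light-strand tRNAs had 9 of 10 labels tested (4 above, 5 below), with Qrsl1 at -1.20 (SE 0.89). Those that modify mitochondrial tRNAs had 10 of 13 tested (6 above, 4 below), with Osgepl1 at -1.18 (SE 0.66). Sensors of double-stranded RNA had 9 of 12 tested (6 above, 3 below), with Ifih1 at -1.29 (SE 0.67). Every one of these had an edgeR adjusted p of 0.9999.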

How the data were processed

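Per the labels' protocols, total RNA of 3000 cells per library was used with a Takara kit (SMARTer Stranded Total RNA-Seq Kit v2). The authors' deposited values are raw counts, whole numbers per Ensembl gene ID and library. The submitters' processing notes name Bowtie2 2.4.5, DESeq2 1.32.0, HTSeq 2.0.3, SAMtools 1.3.1 and Trim Galore 0.6.5, with mm10 as the build. What each did, with which annotation and counting settings, is not given in the sources used here. Reads from mitochondrial copies in nuclear DNA, or spanning adjacent genes, can be shared or lost.

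Symbols from a gene name table matched 53620 of 54590 IDs. Positions, lengths and sequences are those of GENCODE M21 on GRCm38. CPM values use library totals. The fit was edgeR 4.0.16 (R 4.3.3) quasi-likelihood with TMM scaling, the filterByExpr filter, robust estimates and no block, on libraries 1 and 2 summed and library 3. Each SE was derived from the fold change and the square root of its F statistic. The script was tested on simulated counts. Ratios, intervals and exact tests used Python 3.11.15 and scipy 1.17.1. Alternatives covered scaling, filters, DESeq2 1.42.0, separate libraries, the block, reference genes and each library left out.

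Same-numbered libraries deviated together from their group means (correlations 0.216, 0.177 and 0.484 over 9279 genes), so the numbers were taken to pair the libraries. This comes from the data, not from a label. Libraries 1 and 2 were not told apart by it: Ctrl 1 correlated with FGR 2 at 0.213, and Ctrl 2 with FGR 1 at 0.198, above its own number.

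All 9 light-strand genes were described, with mt-Nd5, mt-Cytb, the heavy-strand mRNAs of highest and lowest summed counts per kb, the 2 heavy-strand tRNAs with most counts, the 3 genes closest to mt-Nd6, and of each nuclear list the gene with the smallest p. Genes, lists and tests were chosen with earlier results of these data known.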

Additional observations from a re-analysis of the deposited data

How the results depend on the processing

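No light-strand gene was called under any alternative run. Among fits that kept library 3 in both groups, the smallest edgeR adjusted p of a light-strand gene was 0.7127, for mt-Tp with the replicate block on 6 libraries. mt-Ta entered only some fits. Its log2 fold change was 2.41 with no filter, 2.56 in DESeq2 and 6.77 without Ctrl library 3. mt-Nd6 kept its direction under all 16, at log2 fold changes of 0.01 to 0.31 (0.14 to 0.31 with each library left out). mt-Tp turned negative with the replicate block on summed pairs (-0.088), with that block on 6 libraries (-0.26) and with scaling to heavy-strand mRNAs (-0.027). mt-Te turned negative with the replicate block on summed pairs (-0.16) and on 6 libraries (-0.39). With each library left out, the ranges were -1.60 to 1.30 for mt-Tp, -2.31 to 1.26 for mt-Te, -1.36 to 1.61 for mt-Tn and -2.24 to 3.72 for mt-Ts1. mt-Ts1 did not pass the filter with 6 separate libraries.

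mt-Nd6 against heavy-strand mRNAs, 0.09 on the log2 scale, was -0.003 with mt-Nd5 as reference, 0.01 to 0.10 under the other settings and 0.04 to 0.20 with each library left out. The difference in summed light-strand tRNA against heavy-strand mRNA, -0.30, ran from -1.67 without FGR library 3 to 0.61 without Ctrl library 3, where the sets are again unbalanced. The count of all genes called was 0, 1 with no filter on low counts, and 0 to 27 with each library left out. The 27 came without Ctrl library 3, where Ctrl was a single sample whose spread was taken from FGR. The replicate block called 0 genes and changed no call. At an unadjusted p under 0.05 there were 281 genes, against 938 with the replicate block, 703 with 6 separate libraries, 1329 with both, 500 with scaling to heavy-strand mRNAs, 901 with no filter and 2532 without Ctrl library 3. mt-Tq, mt-Ta, mt-Tc and mt-Ty held 8 to 45 counts each and did not pass the filter on low counts with all libraries in the fit.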
